A study of Mus musculus with 4 samples.

Results

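A pair of probe sets with neighbouring identifiers on the Affymetrix Mouse Genome 430 2.0 Array was described together with every probe set of 8 genes of the cytokine receptors that share the common gamma chain, namely Il4ra, Il13ra1, Il15ra, Il7r, Jak1, Jak3, Stat5b and Stat6. The pair was chosen by identifier because its signal was low in both melanotransferrin clones, so its difference between the groups is a description with no test. The pair was thought to measure the common gamma chain, but 0 of the 2 identifiers were listed in the platform annotation used here. Both are therefore given with no gene name, as the a_at and the at probe set of the pair after the endings of their identifiers, which the plots print in full. The 8 genes were chosen by name, and each was represented by all probe sets that the annotation assigned to that gene alone. This gave 20 probe sets of genes and 22 in all, out of 45037 that were not controls.

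The MTf lines, MTf 4 and MTf 6, are clones 4 and 6 of LMTK- cells stably transfected with pCI-neo carrying the mouse melanotransferrin cDNA. They were set against vector 1 and vector 2, LMTK- cells with pCI-neo and no insert. LMTK- cells are mouse fibroblasts that lack thymidine kinase, and all 4 lines share this background and the vector. Total RNA of each line was hybridised to 1 array, and each MTf line is 1 clone. Whether the vector lines are clones, or were grown apart, is not in the labels, so p-values reflect the spread between these 4 samples alone, part of which may be technical.

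The common gamma chain is a subunit of the receptors for interleukins of one family, among them IL-2, IL-4, IL-7 and IL-15, and is known mainly from lymphocytes. Each receptor adds a partner chain of its own. JAK1 binds the partner chain and JAK3 binds the gamma chain, and the kinases then phosphorylate STAT factors, chiefly STAT5 for IL-7 and IL-15 and STAT6 for IL-4. In fibroblasts and other cells outside the blood, IL-4 and IL-13 can also signal to STAT6 through Il4ra paired with Il13ra1, without the gamma chain.

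All 4 arrays had a 2%-trimmed mean signal of 1000.01, and their median signals lay between 209 and 214. The ratio of 3' to 5' signal of the Actb control probe sets lay between 1.21 and 1.31, and that of Gapdh between 0.669 and 0.691. Meltf, the gene of melanotransferrin, gave signals of 1518.5 in MTf 4 and 1884.5 in MTf 6, against 265 in vector 1 and 274 in vector 2, in the direction of the labels. Its log2 difference was 2.52 (SE 0.24), and by limma it did not pass over all probe sets (adjusted p = 0.0903), though it did when MTf 4, MTf 6 or vector 2 was left out (adjusted p = 0.00406, 0.0250 and 0.0445 by limma). Markers of fibroblasts, 12 genes, summed to 272203 in MTf 4 and 218533 in MTf 6, against 202962 in vector 1 and 227046 in vector 2. Vim, S100a4, Fn1 and Col1a2 made up most of each sum, at 94073, 75392, 56426 and 30047 in MTf 4. Of the 8 measured genes of that list, 2 were higher and 1, Pdgfrb, lower in both clones. Over all tested genes these shares were 11.7% and 12.7%. Lum, Dcn, Postn and Thy1 of that list were below the filter on dim probe sets.

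Promoters are shown for 3 of the genes. Jak1 is shown because all 3 of its probe sets were higher in both clones, Stat6 because both of its probe sets were low in vector 2, and Il7r because it has a match to a STAT-type motif. The sequences come from RefSeq on GRCm38.p6 and run 5′ to 3′ from 250 bases before the annotated start to 50 bases after it. Capitals mark a match to TTCNNNGAA or TTCNNNNGAA, the spacings known for STAT5 and STAT6, which read the same on both strands.
Jak1, chr4:101265174-101265473, minus strand: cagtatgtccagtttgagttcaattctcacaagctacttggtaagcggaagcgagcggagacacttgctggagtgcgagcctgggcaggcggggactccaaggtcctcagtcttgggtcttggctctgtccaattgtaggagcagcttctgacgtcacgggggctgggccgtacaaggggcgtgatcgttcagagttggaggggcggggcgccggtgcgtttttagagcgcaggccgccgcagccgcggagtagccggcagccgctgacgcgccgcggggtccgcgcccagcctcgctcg
Stat6, chr10:127642736-127643035, plus strand: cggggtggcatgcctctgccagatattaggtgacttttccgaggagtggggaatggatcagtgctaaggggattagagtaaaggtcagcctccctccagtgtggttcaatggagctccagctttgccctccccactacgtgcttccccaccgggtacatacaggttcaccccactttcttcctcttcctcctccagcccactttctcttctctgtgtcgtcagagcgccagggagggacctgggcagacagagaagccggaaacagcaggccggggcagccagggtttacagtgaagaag
Il7r, chr15:9529827-9530126, minus strand: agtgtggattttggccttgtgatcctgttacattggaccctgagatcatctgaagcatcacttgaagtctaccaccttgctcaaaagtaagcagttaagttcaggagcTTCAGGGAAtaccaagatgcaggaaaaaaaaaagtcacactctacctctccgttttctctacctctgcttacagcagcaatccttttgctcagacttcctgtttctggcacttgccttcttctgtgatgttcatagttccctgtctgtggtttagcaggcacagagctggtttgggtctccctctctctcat
The match in Il7r, TTCAGGGAA, begins 142 bases upstream of the start. All 8 genes had a promoter in the RefSeq table, 10 promoters in all, and 1 of these held a match. Over all 32851 promoters of 300 bases, 8.30% held TTCNNNGAA, 6.95% held TTCNNNNGAA and 14.6% held at least 1 of them. A match is a description of the letters and not a site of binding.

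Signals are linear intensities per probe set, and differences were taken on the log2(signal + 32) scale, MTf minus vector, which understates the change of a dim one. Those whose mean on that scale was below the median of all, a signal of about 196, were not tested, which left 22519. Of the 22 probe sets, 14 passed this filter, and 8 did not: all 5 of Il13ra1, both of Il7r and 1 of Il4ra. The plot of signals by array shows all 22.

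**Figure D1:**
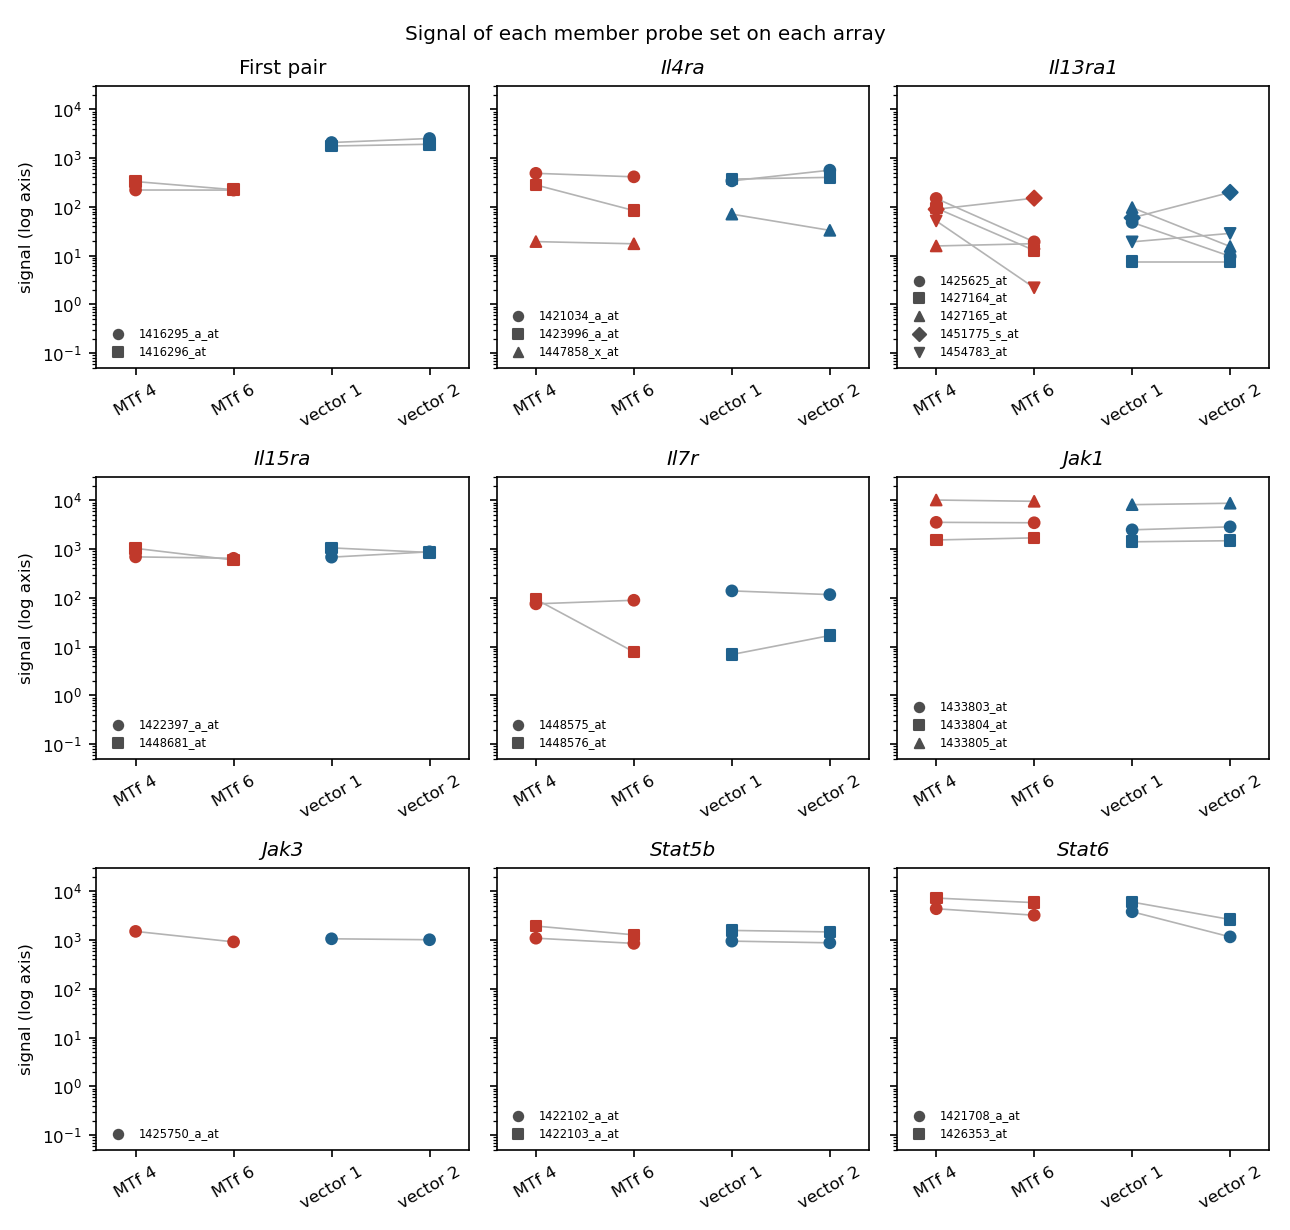
Signal (log axis) of each of the 22 probe sets on the 4 arrays, MTf clones in red and vector lines in blue, with 1 marker shape per probe set and grey lines joining the arrays of a group. The pair lies between 221 and 330.2 in the clones and between 1767 and 2519 in the vector lines, the 3 probe sets of Jak1 are slightly higher in both clones, and Stat6 is low in vector 2 alone.

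The pair was low in both clones and high in both vector lines. The a_at probe set gave 221.5 in MTf 4 and 220.6 in MTf 6, against 2084 in vector 1 and 2519 in vector 2. The clones were nearly equal, at 221 ± 0.636 (SD, n = 2), and the vector lines averaged 2302 ± 308 (SD, n = 2). Each clone lay between 9.41- and 11.4-fold below each vector line. The at probe set gave 330.2 in MTf 4 and 225 in MTf 6, against 1767 in vector 1 and 1921 in vector 2. Here MTf 4 was the higher clone, and each clone lay between 5.35- and 8.54-fold below each vector line. The groups did not overlap for either probe set, which also restates how the pair was chosen. Both clones were below both vector lines for 13.6% of all tested probe sets.

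On the log2(signal + 32) scale the difference was -3.20 for the a_at probe set and -2.62 for the at probe set. These were the lowest and the third lowest differences among the 22519 tested probe sets, which restates how the pair was chosen. Across the array, 1 probe set passed an adjusted p of 0.05 by limma (0.00444%, against 1.90% at an unadjusted p under 0.05), and it was the a_at probe set itself. Nothing is read from that call, since the contrast is the one that chose the pair. With each array left out in turn, the difference lay between -3.33 and -3.06 for the a_at probe set and between -2.87 and -2.37 for the at probe set. Detection calls were not used, so whether the clones' signals of 221 to 330.2 exceed background is not known here.

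The 2 probe sets were each other's closest match over the 4 arrays. Likeness was the Euclidean distance between deviations of log2(signal + 32) from each probe set's 4-array mean, and the distance between the pair, 0.684, was the smallest for either among 22518 others. Since both were picked for low signal in both clones, this closeness, and the smaller differences of other probe sets, largely restate the choice and support nothing. The nearest probe sets with 1 gene were farther away and showed smaller differences. For the at probe set they were those of Hspa4, a chaperone, at a distance of 1.04, Slco2b1, an organic anion transporter, at 1.06, Afp, alpha-fetoprotein, at 1.35, Fmnl1, a formin, at 1.36 and Itsn1, an endocytic scaffold, at 1.37. For the a_at probe set they were Hspa4 at 1.64, Slco2b1 at 1.64, Afp at 1.73, Itsn1 at 1.90 and Ercc2, a DNA repair helicase, at 1.90. Hspa4 gave 214 in MTf 4 and 35.8 in MTf 6, against 589 in vector 1 and 569.8 in vector 2, and Slco2b1 gave 160.4 in MTf 4 and 90.8 in MTf 6, against 346 in vector 1 and 588 in vector 2. Both were low in both clones, with log2 differences of -2.24 and -1.65. None of the 8 genes described here was among the nearest 5 out of 19379 probe sets with 1 gene, and nothing is read from this.

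The 6 genes with tested probe sets are read against all tested probe sets, not against the pair, which was chosen for its difference. Of their 12 tested probe sets, 0 passed in either direction by limma over all probe sets, each with an adjusted p = 1.00. Over all tested probe sets the share that passed was 0.00444%. An unadjusted p under 0.05 by limma held for 1 of the 12, against 1.90% of all tested probe sets. Both clones were above both vector lines for 3 of the 12, all of Jak1, against 12.2% of all tested probe sets. Both clones were below both vector lines for 1, of Il4ra, against 13.6%. The groups were apart in either direction for 25.8% of all tested probe sets. The median log2 difference of the 12 probe sets was 0.12, with up to 3 probe sets for a gene. Over all 10682 tested genes, by 1 probe set each, the median was -0.01, so the 2 medians are of unlike units. An exact permutation test of 2 arrays against 2 (two-sided) cannot go below p = 0.333, so limma, which borrows spread from all probe sets, was used.

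**Figure D2:**
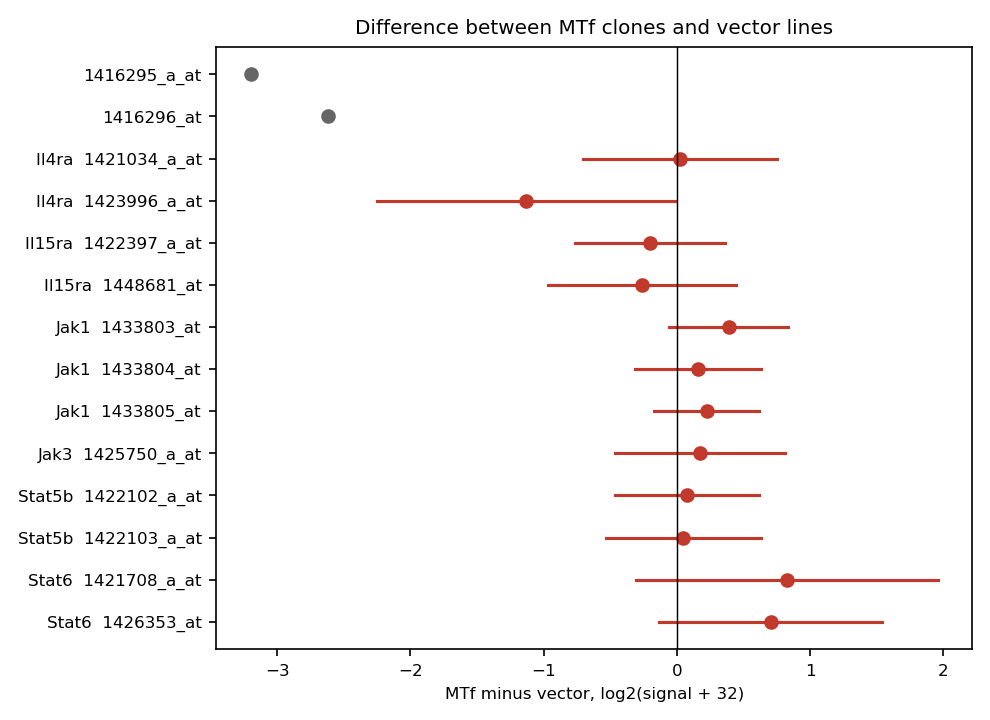
Log2 difference, MTf minus vector, of the 14 tested probe sets, as points, with 95% intervals of the limma fit as bars for the 12 probe sets of named genes. The pair in grey was chosen on this contrast and has no interval; the intervals of the named genes include 0 except that of Il4ra 1423996_a_at, which runs from -2.25 to -0.014.

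Among the receptor chains, Il4ra, the chain that binds IL-4, gave different answers by its 3 probe sets. Probe set 1423996_a_at gave 281 in MTf 4 and 84.0 in MTf 6, against 371 in vector 1 and 402 in vector 2. Both clones were lower, MTf 6 far more than MTf 4. Its log2 difference was -1.13 (SE 0.48, 95% interval -2.25 to -0.014), with an adjusted p = 1.00 by limma. The value was -1.85 without MTf 4 and -0.42 without MTf 6. Probe set 1421034_a_at gave 487 in MTf 4 and 413 in MTf 6, against 341 in vector 1 and 564 in vector 2. By this probe set the clones lay between the vector lines, and the log2 difference was 0.03 (95% interval -0.70 to 0.75). The third, 1447858_x_at, was below the filter, at 19.4 in MTf 4 and 17.5 in MTf 6, against 70.9 in vector 1 and 33.0 in vector 2. No direction for Il4ra held across its probe sets.

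Il15ra, which binds IL-15 and presents it to neighbouring cells, did not separate the groups. Probe set 1448681_at gave 1034 in MTf 4 and 597 in MTf 6, against 1058 in vector 1 and 852 in vector 2. MTf 6 was the lowest line and MTf 4 was close to vector 1. The log2 difference was -0.26 (95% interval -0.96 to 0.44), and it was 0.12 without MTf 6. Probe set 1422397_a_at gave 692 in MTf 4 and 647 in MTf 6, against 683 in vector 1 and 879 in vector 2, a log2 difference of -0.20 (95% interval -0.77 to 0.36). Both of its probe sets were lowest in MTf 6.

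Il13ra1, the chain that pairs with Il4ra outside the blood, was dim on all 4 arrays by all 5 of its probe sets. Its signals reached from 2.20 to 198, none of the 5 was tested, and the probe sets disagreed on which line was highest. Probe set 1425625_at gave 149 in MTf 4 and 19.2 in MTf 6, against 48.1 in vector 1 and 9.70 in vector 2. By 1451775_s_at the signals were 89.2 in MTf 4 and 151 in MTf 6, against 59.6 in vector 1 and 198 in vector 2. MTf 4 was the highest line by the first of these and vector 2 by the second. Il7r, the chain that binds IL-7, was also below the filter by both probe sets. Probe set 1448575_at gave 75.4 in MTf 4 and 89.3 in MTf 6, against 139 in vector 1 and 117 in vector 2, and 1448576_at gave between 6.90 and 93.5. Of the 8 probe sets below the filter, 1 was higher in both clones and 2 were lower, beside 16.4% and 16.7% of all probe sets below the filter.

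Of the kinases, Jak1 was higher in both clones by each of its 3 probe sets, by a small amount that did not pass the test. Probe set 1433803_at gave 3531 in MTf 4 and 3461 in MTf 6, against 2479 in vector 1 and 2856 in vector 2. The clones averaged 3496 ± 49.6 and the vector lines 2668 ± 267 (SD, n = 2 each), and the log2 difference was 0.39 (SE 0.19, 95% interval -0.06 to 0.83, adjusted p = 1.00 by limma). Probe set 1433805_at gave 10119 in MTf 4 and 9528 in MTf 6, against 8132 in vector 1 and 8695 in vector 2. Its difference was 0.22 (95% interval -0.17 to 0.62). Probe set 1433804_at gave 1537 in MTf 4 and 1697 in MTf 6, against 1409 in vector 1 and 1484 in vector 2, a difference of 0.16 (95% interval -0.32 to 0.63).

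The 3 probe sets of Jak1 read 1 gene in the same RNA, so they are not independent. With each array left out in turn, their differences stayed above 0, between 0.09 and 0.49. Jak1 lies on chromosome 4, whose 641 tested genes had a median deviation from the 4-array mean of -0.05 in MTf 4 and 0.22 in MTf 6, against -0.08 in vector 1 and -0.06 in vector 2. The median of the chromosome was highest in MTf 6, as was 1433804_at of Jak1, whereas 1433803_at and 1433805_at were highest in MTf 4. Among the 20 nearest measured genes on that chromosome, 10 to each side, 2 were higher and 2 lower in both clones, beside 11.7% and 12.7% of all tested genes.

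Jak3, which binds the gamma chain and is known chiefly from blood cells, was highest in MTf 4. Its probe set 1425750_a_at gave 1507 in MTf 4 and 918 in MTf 6, against 1062 in vector 1 and 1016 in vector 2. The vector lines lay between the clones, and the log2 difference was 0.18 (95% interval -0.46 to 0.82). Without MTf 4 it was -0.17. Another 2 probe sets were annotated to both Jak3 and Insl3, a hormone gene, and were left out as members. One of them, 1423021_s_at, gave 1329 in MTf 4 and 869 in MTf 6, against 976 in vector 1 and 928 in vector 2, with the same line highest.

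Of the transcription factors, Stat5b, which acts downstream of IL-7 and IL-15, did not separate the groups. Probe set 1422103_a_at gave 1937 in MTf 4 and 1281 in MTf 6, against 1576 in vector 1 and 1469 in vector 2. Probe set 1422102_a_at gave 1093 in MTf 4 and 855 in MTf 6, against 951 in vector 1 and 879 in vector 2. Both were highest in MTf 4 and lowest in MTf 6, as was Jak3. Their log2 differences were 0.05 (95% interval -0.53 to 0.63) and 0.08 (95% interval -0.46 to 0.62), and each turned negative without MTf 4, at -0.24 and -0.094.

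Stat6, the factor of IL-4 and IL-13 signalling, was low in vector 2 alone. Probe set 1421708_a_at gave 4388 in MTf 4 and 3232 in MTf 6, against 3807 in vector 1 and 1163 in vector 2. Probe set 1426353_at gave 7257 in MTf 4 and 5854 in MTf 6, against 6007 in vector 1 and 2642 in vector 2. By either probe set vector 1 lay between the clones, and the mean of the other 3 lines was 3.28-fold and 2.41-fold above vector 2. In both, vector 2 was at no more than 50% of each other line, which held for 0.577% of all tested probe sets. The group differences were 0.83 (SE 0.49, 95% interval -0.30 to 1.96) and 0.70 (SE 0.36, 95% interval -0.13 to 1.54), with an adjusted p = 1.00 by limma for both. Without vector 2 they were -0.015 and 0.12, so the group difference rests on that array.

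Stat6 lies on chromosome 10, and its neighbours were often lowest in the same line. The 512 tested genes of that chromosome had a median deviation of 0.13 in MTf 4 and 0.05 in MTf 6, against 0.09 in vector 1 and -0.25 in vector 2. Of the 20 nearest measured genes, 10 to each side of Stat6, 11 were lowest in vector 2, against 19.7% of all tested genes. In 3 of the 20, vector 2 was at no more than 50% of each other line, against 0.552% of all tested genes. These were Dctn2, a dynactin subunit, Ddit3, a stress-response transcription factor, and Nemp1, a nuclear envelope protein, and they are named because of their values. Ddit3 gave 16851 in MTf 4 and 16577 in MTf 6, against 15774 in vector 1 and 6749 in vector 2. Nab2, the next measured gene beside Stat6, gave 3268 in MTf 4 and 2676 in MTf 6, against 3504 in vector 1 and 2691 in vector 2, so not every neighbour was low there. This difference rests on 1 array and has no replicate check, and its source was not tested.

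**Figure D3:**
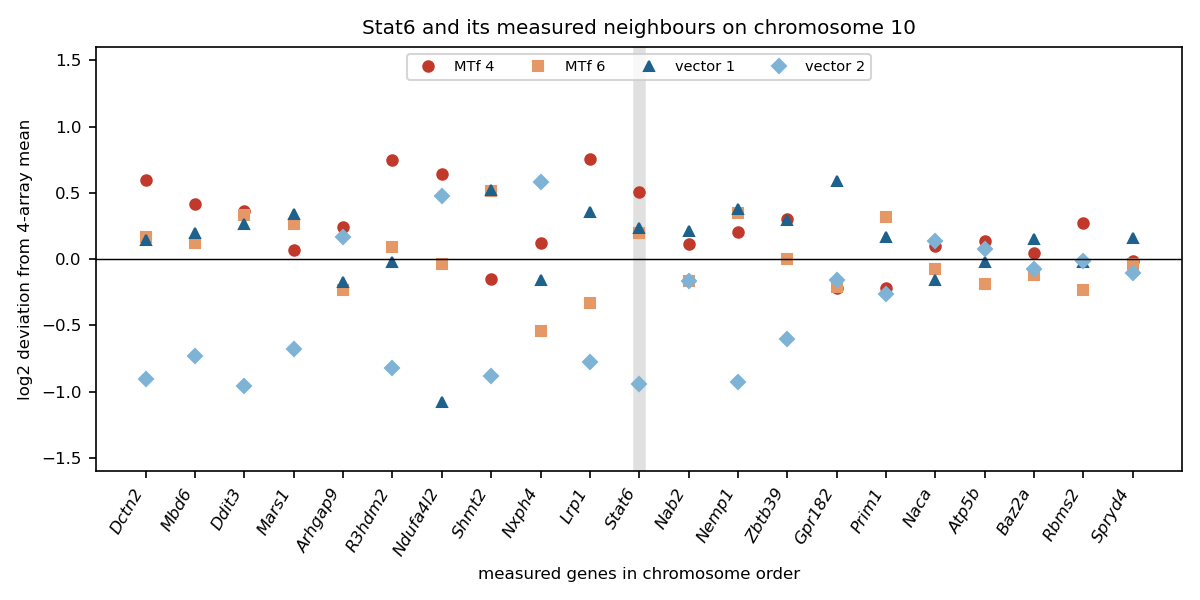
Deviation of each line from the 4-array mean, in log2(signal + 32), for Stat6 (grey band, probe set 1426353_at) and the 10 measured genes to each side of it in chromosome order, by the brightest probe set of each gene. Vector 2 is the lowest line for Stat6 and for 11 of the 20 neighbours.

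Across the 12 tested probe sets of named genes, MTf 4 was the highest line for 7 and the lowest for 0, while MTf 6 was the lowest for 6. MTf 4 was the highest line for 30.4% of all tested probe sets, and MTf 6 the lowest for 29.3%. Both clones carry the same construct, and in Jak3 and both probe sets of Stat5b they were the 2 outermost lines.

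The other genes of the pathway gave no call. They were read from 7 lists of 70 genes in all, of which 49 had a tested probe set. Of their 118 tested probe sets, 0 passed by limma in either direction, against 0.00444% of all tested probe sets. An unadjusted p under 0.05 by limma held for 3 of the 118, against 1.90% of all tested probe sets. By the brightest probe set of each gene, 3 of the 49 genes were higher in both clones and 7 lower, against 11.7% and 12.7% of all tested genes. The median log2 difference of the 49 was -0.04.

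**Figure D4:**
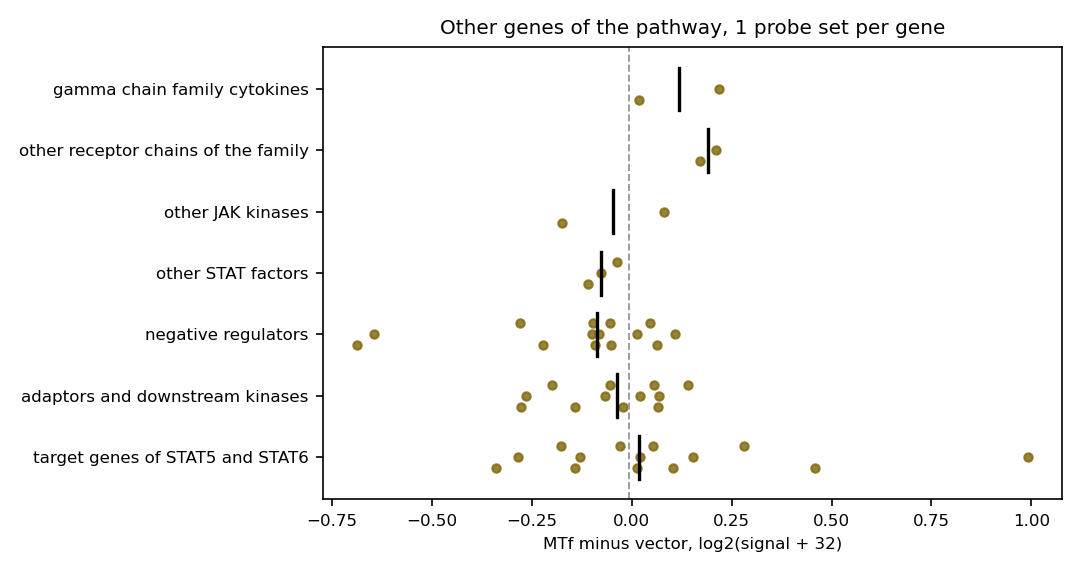
Log2 difference, MTf minus vector, of the 49 measured genes of the 7 pathway lists, 1 point per gene by its brightest probe set, with black bars at the list medians and a dashed line at the median of all tested genes, -0.01. Most points lie near 0, and Ch25h stands at 0.99.

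Of the 8 cytokines of the family, 2 were measured. Il15 gave 4079 in MTf 4 and 3179 in MTf 6, against 3265 in vector 1 and 3877 in vector 2, a log2 difference of 0.02 (95% interval -0.48 to 0.51). Il7 had a difference of 0.22 and also overlapped between the groups. Of 6 further receptor chains, 2 were measured. Crlf2, a chain of the TSLP receptor, gave 3322 in MTf 4 and 2426 in MTf 6, against 1855 in vector 1 and 3226 in vector 2. Il13ra2, which binds IL-13 as a decoy, differed by 0.17. Il2ra and Il2rb, the chains of the IL-2 receptor, were below the filter. The lists had medians of 0.12 and 0.19, each over 2 genes.

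The other kinases and factors also overlapped between the groups. Both Jak2 and Tyk2 were measured, with log2 differences of 0.08 and 0.03 for Jak2 and -0.18 and -0.06 for Tyk2, and a list median of -0.05. Of 5 other STAT factors 3 were measured, with a median of -0.08. Stat5a, the close relative of Stat5b, gave 1218 in MTf 4 and 623 in MTf 6, against 1263 in vector 1 and 1036.5 in vector 2 by 1450259_a_at. As with Stat5b, MTf 6 was the lowest line. Its differences were -0.38 and -0.11 by its 2 probe sets, and those of Stat3, the factor of IL-6 signalling, were 0.21 and 0.24 by the probe sets with the smallest p and -0.08 by its brightest.

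Among negative regulators, 14 of 16 were measured and had a median of -0.09, with 0 higher and 3 lower in both clones (Socs3, Socs5 and Ptpn6), beside 11.7% higher and 12.7% lower of all tested genes. Socs3, an inhibitor of JAK signalling, gave 461 in MTf 4 and 496 in MTf 6, against 992 in vector 1 and 588 in vector 2, a log2 difference of -0.64 (95% interval -1.34 to 0.05). Ptpn6, a phosphatase of blood cells, differed by -0.69. Ptpn1, a phosphatase that acts on JAK kinases, differed by -0.42 by 1 probe set and by -0.05 by its brighter one, where the groups overlapped. Pias3, an inhibitor of STAT3, differed by 0.41 by 1 probe set and by 0.11 by its brighter one. None of these passed (adjusted p = 1.00 by limma for each).

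Of 13 adaptors and downstream kinases 12 were measured, with a median of -0.04. Sos1, an activator of Ras, gave 581 in MTf 4 and 636 in MTf 6, against 426 in vector 1 and 318 in vector 2, a log2 difference of 0.68 (unadjusted p = 0.0380, adjusted p = 1.00 by limma). Its brightest probe set differed by 0.06, and there the groups overlapped. Akt1, a survival kinase, differed by -0.82 by 1440950_at, whose signals lay between 164 and 391, and by -0.28 by its brightest probe set. These were the 2 with the smallest p of its 3 tested probe sets. Pik3ca, a catalytic subunit of PI3 kinase, differed by -0.48, against -0.14 by its brightest probe set. Of 20 target genes of STAT5 and STAT6 14 were measured, with a median of 0.02, 3 higher and 2 lower in both clones, beside 11.7% and 12.7% of all tested genes. Ch25h, which makes 25-hydroxycholesterol, gave 391 in MTf 4 and 383 in MTf 6, against 187 in vector 1 and 171 in vector 2. Its log2 difference was 0.99 (SE 0.30, 95% interval 0.29 to 1.69), with an adjusted p = 1.00 by limma. Ccnd1, cyclin D1, differed by -0.35 and -0.29 by the 2 with the smallest p of its 3 tested probe sets, and Myc by 0.28.

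Markers of blood cells, in which the gamma chain is chiefly known, went in different directions. Of 17 lymphocyte markers 14 had a probe set, and these summed to 4304 in MTf 4 and 2899 in MTf 6, against 2323 in vector 1 and 4072 in vector 2. Of them 3 were above the filter, with a median log2 difference of 0.32: Cd79a at 0.50, Zap70 at -0.14 and Cd8a at 0.32. Cd79a gave 2375 in MTf 4 and 1364 in MTf 6, against 918 in vector 1 and 1734 in vector 2. Zap70 gave 836 in MTf 4 and 546 in MTf 6, against 391 in vector 1 and 1408 in vector 2. Cd79a and Zap70 made up most of each sum. By limma 0 passed, against 0.00444% of all tested probe sets. Of the 3, 1 was higher and 0 lower in both clones, beside 11.7% and 12.7% of all tested genes. Cd3e, part of the T cell receptor, was below the filter. It gave 38.9 in MTf 4 and 35.1 in MTf 6, against 32.8 in vector 1 and 54.0 in vector 2. The 15 general leukocyte and myeloid markers summed to 3999.9 in MTf 4 and 3318 in MTf 6, against 4436 in vector 1 and 3935 in vector 2. Ptprc, the leukocyte antigen CD45, gave 88.8 in MTf 4 and 7.30 in MTf 6, against 87.7 in vector 1 and 35.1 in vector 2. Of these markers 7 were above the filter, with a median log2 difference of -0.23, and 0 passed by limma. Of the 7, 0 were higher and 2 lower in both clones, beside 11.7% and 12.7% of all tested genes. The 2 were Laptm5 and Adgre1. By its brightest probe set, Laptm5 gave 329 in MTf 4 and 519 in MTf 6, against 895 in vector 1 and 565 in vector 2. Adgre1 gave 229 in MTf 4 and 279 in MTf 6, against 312 in vector 1 and 321 in vector 2. In bulk RNA, fewer cells of a type and less RNA per cell cannot be told apart, and the part of such cells in the pair's signal was not tested.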

How the data were processed

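Total RNA of 2 MTf clones and 2 vector lines was measured with 1 array each, and groups came from the labels. The deposited values are intensities on a linear scale, 1 per probe set, made by the authors with GCOS 1.3 per the submitters' processing notes, with settings not given in the sources used here. All arrays had the same trimmed mean and were used as deposited. Having 4 arrays limits how precise any value can be.

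The platform annotation paired 34945 of 45037 probe sets that were not controls with 1 gene, assigned 932 to several genes and did not list 9160. Chromosomes, gene order and 34741 of the 1-gene probe sets were matched to RefSeq's gene table of GRCm38.p6. Values were converted to log2(signal + 32), and 22519 probe sets were fitted with limma 3.58.1 in R 4.3.3 (lmFit, eBayes with a trend), with Benjamini-Hochberg adjustment over all of them and a threshold of 0.05. The fit was tested on simulated data. A list is given by its counts and median, with each gene read by its brightest probe set.

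The members, the lists and the rule for named genes were chosen with earlier results of these data known. The rule took all member probe sets, Meltf, up to 4 probe sets per pathway list with the smallest p and the 5 named probe sets nearest to each of the pair. In all 14 alternative settings were tried, of which 4 left out 1 array.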

Additional observations from a re-analysis of the deposited data

How the results depend on the processing

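The 12 tested probe sets of named genes were recomputed under 14 settings, where the filter kept them, which gave 163 values. In all 163 the probe set stayed uncalled by limma, with adjusted p-values of 0.281 or more, and 155 kept their sign. The count of calls among them was 0 in each setting. The 8 values of opposite sign all came from leaving out 1 array. With an array left out, the log2 difference lay between -0.31 and 0.36 for 1421034_a_at of Il4ra, between -0.64 and 0.12 for 1448681_at of Il15ra and between -0.17 and 0.52 for Jak3. It lay between -0.094 and 0.25 for 1422102_a_at of Stat5b, between -0.24 and 0.34 for 1422103_a_at of Stat5b and between -0.015 and 1.67 for 1421708_a_at of Stat6. The cause was not tested, beyond each fit holding fewer arrays.

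Across all probe sets, the count of calls was 1. It was 0 without the filter, with the filter at the third quartile, without the variance trend and without variance moderation, and between 2 and 25 with 1 array left out (25 without MTf 4, 12 without MTf 6, 2 without vector 1 and 6 without vector 2). Such fits assume that the lone array varies like those of the other group. The difference of Meltf lay between 2.36 and 2.67 with 1 array left out, and it passed without MTf 4, without MTf 6 and without vector 2. The filter at the third quartile left out Meltf, the pair and some member probe sets. No paired analysis was possible because the clones and the vector lines share no replicate numbers. Signal over background is unknown without detection calls, which limits what can be said of Il13ra1 and Il7r.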

Other observations

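Il9, a cytokine of the gamma chain family, was named here after its values were seen. Its probe set gave 14.5 in MTf 4 and 61.8 in MTf 6, against 182 in vector 1 and 246 in vector 2. Both clones were lower, but the probe set was below the filter and was not tested. Of all probe sets below the filter, 16.7% were lower in both clones. Among the other cytokines of the family below it, Il13 was lower in both clones too. Il2, Il4, Il21 and Tslp overlapped by their brightest probe sets. Itgam, a myeloid integrin also named after its values were seen, gave 53.2 in MTf 4 and 132 in MTf 6, against 6.20 in vector 1 and 7.0 in vector 2. Both clones were higher, but it too was below the filter and was not tested. Of all probe sets below the filter, 16.4% were higher in both clones. Kit and Fcer1g of the list of Itgam, also below the filter, were higher in both clones too. Ptprc, Lcp1, Tyrobp, Cd14 and Fcer1a, also below it, overlapped by their brightest probe sets. Of the 7 genes of that list above the filter, 0 were higher and 2 lower in both clones. Over all tested genes these shares were 11.7% and 12.7%.

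Over the 118 tested probe sets of the pathway lists, MTf 6 was the lowest line for 46.6%, against 29.3% of all tested probe sets. MTf 4 was the highest for 31.4%, against 30.4% of all tested probe sets.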
